A study of Mus musculus with 24 samples.

Results

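The genes described here encode the subunits of the mitochondrial respiratory chain and ATP synthase, together with the assembly factors that share their symbols. They were taken by symbol, as every probe annotated with 1 gene whose symbol starts with Nduf, Uqcr, Atp5 or Cox followed by a digit, or is Sdha, Sdhb, Sdhc, Sdhd or Cyc1. This gave 95 genes of 14182 annotated on either platform. The CodeLink Bioarrays (CL) held 77 of 10956 genes and the Affymetrix arrays (Affy) 91 of 12394, and 73 genes were on both. On CL, 32 genes belonged to complex I, 4 to complex II, 8 to complex III, 20 to complex IV and 13 to complex V. On Affy these numbers were 39, 4, 9, 22 and 17.

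Complex I (the Nduf genes) takes electrons from NADH and complex II (the Sdh genes, succinate dehydrogenase) takes them from succinate. Both pass them through ubiquinone to complex III (the Uqcr genes and cytochrome c1, Cyc1), and cytochrome c carries them to complex IV, the cytochrome c oxidase built from the Cox genes, which reduces oxygen. The proton gradient so formed drives complex V, the ATP synthase of the Atp5 genes. A secretory gland such as the lacrimal gland spends ATP on ion pumping and protein export. The subunits encoded by the mitochondrial genome itself do not carry these symbols and are not among the members.

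The RNA came from exorbital lacrimal glands of female mice of 2 strains used as models of Sjögren syndrome, MRL/MpJ-Tnfrsf6 lpr mice (MRL/lpr, which carry the lpr allele of Fas) and nonobese diabetic (NOD) mice. Mice of each strain received subcutaneous pellets that released either placebo or testosterone (T), over a period that the labels give as 18 days (MRL/lpr) or 21 days (NOD), whereas the study's methods give a shared range for both strains that is longer than the labels' value for MRL/lpr. Glands were pooled before RNA was extracted, from 6 mice a pool in MRL/lpr and 2 to 4 in NOD, and each of the 4 groups had 3 pools. Every pool was hybridised to a CL and an Affy array, giving 12 arrays a platform. The platforms therefore share RNA and are not independent samples, and pools rather than mice are the replicates. Strain cannot be told apart from pool size or age, which differed with it, or from treatment length if it differed as the labels have it. No strain without autoimmune disease was included.

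CL values are given as multiples of the array's median spot, and Affy values are scaled to a trimmed mean of 500 on each array. A level on one probe cannot be set against a level on another. Between 47.2% and 61.0% of CL spots on an array were marked near background. On Affy, between 28.5% and 42.0% of probe sets lay under the floor of 70.5. Most members were well measured: 66 of 77 genes on CL and 83 of 91 on Affy were near background on no array, and 62 and 77 genes lay in the brightest 25% of all genes tested. Cox15 and Uqcrq on CL and Cox7a1 and Cox8b on Affy had no group mean above the platform's floor and were not tested, leaving 75 and 89 genes. Changes are log2 values with their standard errors (SE) from a limma fit over all 12 arrays of a platform, and a gene was called at an adjusted p under 0.05 after Benjamini-Hochberg adjustment over all probes of that platform.

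Some pools stood apart. MRL/lpr placebo pool 1 carried salivary gland transcripts, with a summed salivary marker signal of 2645 on CL where the lowest pool of its group had 1.11, and of 181011 on Affy where the lowest had 334. NOD T pool 1 gave the lowest of the 12 Affy values for 30 of 89 members and the highest for 18, and the lowest CL value for 20 of 73. MRL/lpr T pool 3 gave the highest Affy value for 26 of 89 and the highest CL value for 18 of 73. The 3' to 5' signal ratios of control transcripts, used to judge RNA integrity, did not single out 1 array. For beta-actin NOD T pool 1 had the highest ratio (5.71, in a range from 2.43) and MRL/lpr T pool 3 had 4.62, whereas for Gapdh NOD T pool 1 had the lowest ratio (1.52) and MRL/lpr T pool 3 the highest (3.99). The latter also needed the largest factor to reach the common Affy scale (22.6). Counts are therefore also given without these 3 pools. The Affy factors also differed between the T groups, with 15.8, 19.4 and 22.6 in MRL/lpr and 11.6, 3.33 and 3.54 in NOD pools. After scaling, the 99th percentile of an array's signals was still 17106.2 to 19538.5 in MRL/lpr T and 13285.6 to 14423.1 in NOD T pools. The part of this in the differences of bright members under T was not tested. Acinar epithelium markers, which define the gland, were present in every group, with summed CL signals between 102 and 346.

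Ndufc2, a small accessory subunit of the membrane arm of complex I, had the largest change with T among the members called in MRL/lpr glands on each platform, and was the member that T raised in both strains on both platforms. Its CL signals in the MRL/lpr placebo pools were 82.0, 63.0 and 72.5, against 246, 245 and 310 in the T pools. In NOD mice they were 103, 71.9 and 72.7 under placebo and 144, 170 and 248 under T. In both strains the lowest T pool exceeded the highest placebo pool. The change was 1.88 (SE 0.23, adjusted p = 0.000195, limma) in MRL/lpr and 1.17 (SE 0.23, adjusted p = 0.00420) in NOD glands.

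The Affy array gave the same direction in both strains. The Affy signals were 6329, 5765 and 6671 in MRL/lpr placebo pools and 19341, 19727 and 26923 in T pools, a change of 1.80 (SE 0.19, adjusted p = 8.44e-06, limma). NOD placebo pools had 6562, 6004 and 5397 and T pools 11406, 11201 and 10968, a change of 0.91 (SE 0.19, adjusted p = 0.00432). Ratios of group means were 3.68 and 2.27 on CL and 3.52 and 1.87 on Affy, for MRL/lpr and NOD glands respectively. The NOD change minus the MRL/lpr change was -0.71 (SE 0.33) on CL and -0.89 (SE 0.27) on Affy, with adjusted p = 0.25 and 0.0751, and without NOD T pool 1 it passed the test on Affy. A second, dimmer Affy probe set read 1526, 1507 and 1618 against 7282, 6404 and 8644 in MRL/lpr and 2402, 1708 and 1356 against 1994, 3947 and 4131 in NOD glands. Its changes were 2.25 (adjusted p = 2.53e-05) and 0.85 (adjusted p = 0.0490), and their difference of -1.40 passed the test (adjusted p = 0.0395), although its NOD groups overlapped through T pool 1. Under T, the brighter probe set of Ndufc2 was lower in NOD than in MRL/lpr glands on Affy by 0.96 on the log2 scale (adjusted p = 0.00360).

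**Figure D1:**
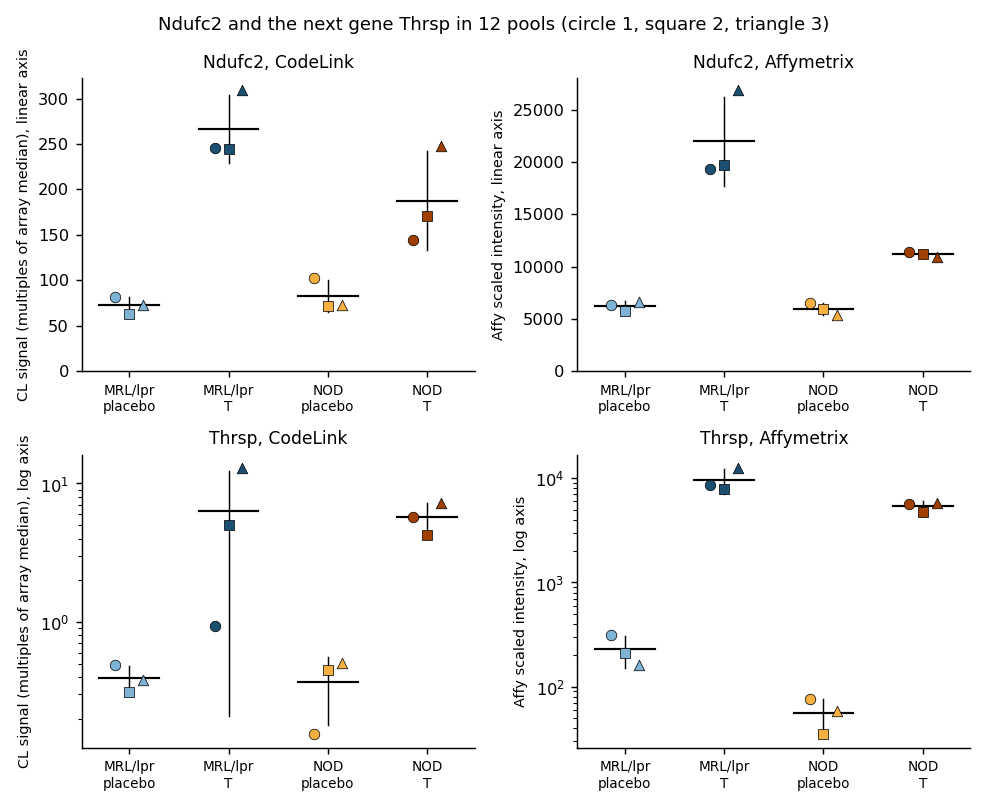
Signals of Ndufc2 (linear axes) and of its chromosomal neighbour Thrsp (log axes) in every pool, on CL in multiples of the array median and on Affy scaled to a trimmed mean of 500. Circles, squares and triangles are pools 1, 2 and 3, lines are group means and bars are SD (n = 3); every T pool of Ndufc2 lies above every placebo pool of its strain.

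Ndufc2 lies on chromosome 7 between 97400003 and 97407800 (GRCm38.p6), with Alg8, an endoplasmic reticulum glucosyltransferase gene, on one side (97371567 to 97392159) and Thrsp on the other (97412933 to 97417550). Thrsp, also called Spot 14, encodes a protein of fatty acid synthesis that thyroid hormone induces in liver. It was examined after the values of Ndufc2 had been seen. On Affy its mean signal rose from 229 ± 78.3 to 9635 ± 2524 (SD, n = 3) in MRL/lpr glands, and NOD glands went from 56.4 ± 20.4 to 5404 ± 604, changes of 5.42 (adjusted p = 1.13e-10) and 6.22 (adjusted p = 4.18e-11). In NOD glands 2 of the 3 placebo pools lay under the floor, so that the size of this second change depends on the floor. On CL it was near background in every placebo pool and at least 4.00-fold higher under T in MRL/lpr (adjusted p = 0.0135) and at least 4.05-fold in NOD glands (adjusted p = 0.00398). Kctd14, which follows Thrsp at 97436380 to 97459557, was not called on Affy in either strain. Whether the signals of these neighbours come from separate transcripts was not tested.

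The bases before the transcription start are shown for 4 members picked from those called. These are Ndufc2 for its T response, Sdhb and Ndufs5 for differences between strains, and Cox6a1 for a difference between strains under T. Each is the 250 bases before a RefSeq start on GRCm38.p6, 5′ to 3′ on the gene's strand, with matches to 1 of 7 searched motifs in capitals.
Ndufc2, chr7:97399753-97400002, plus strand: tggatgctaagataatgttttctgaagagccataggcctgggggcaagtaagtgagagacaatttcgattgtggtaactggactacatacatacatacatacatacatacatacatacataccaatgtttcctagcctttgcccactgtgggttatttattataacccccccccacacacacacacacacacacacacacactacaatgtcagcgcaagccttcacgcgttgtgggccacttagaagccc
Sdhb, chr4:140961021-140961270, plus strand: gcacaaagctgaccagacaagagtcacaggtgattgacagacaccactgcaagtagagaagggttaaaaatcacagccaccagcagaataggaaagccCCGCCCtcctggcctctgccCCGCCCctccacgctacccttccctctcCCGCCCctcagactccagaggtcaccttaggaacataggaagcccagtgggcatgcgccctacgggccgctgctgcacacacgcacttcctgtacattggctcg
Cox6a1, chr5:115348959-115349208, minus strand: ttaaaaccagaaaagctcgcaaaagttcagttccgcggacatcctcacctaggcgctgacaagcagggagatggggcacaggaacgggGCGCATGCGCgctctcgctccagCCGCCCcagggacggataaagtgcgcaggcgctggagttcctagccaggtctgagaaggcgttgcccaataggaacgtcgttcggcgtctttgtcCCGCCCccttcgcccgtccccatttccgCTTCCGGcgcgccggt
Ndufs5, chr4:123718187-123718436, minus strand: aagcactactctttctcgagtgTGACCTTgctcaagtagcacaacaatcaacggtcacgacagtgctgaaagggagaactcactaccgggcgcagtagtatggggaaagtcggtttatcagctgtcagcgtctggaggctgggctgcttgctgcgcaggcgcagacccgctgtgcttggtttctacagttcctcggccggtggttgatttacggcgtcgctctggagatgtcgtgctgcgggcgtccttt

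The motifs were searched on both strands in the 250 bases before the start, for 84 windows of 78 members and 32851 windows in all. The letters of the SP1 site GGGCGG, which in the Sdhb window occur 3 times on the opposite strand, were in 39.3% of member windows and 32.7% of all windows. An ETS site CCGGAAG, of the kind bound by the nuclear respiratory factor GABP, was in 20.2% against 6.91%, and the full palindrome of nuclear respiratory factor 1 (NRF1) in 4.76% (4 genes, Cox6a1 among them) against 0.782%. The Cox6a1 window holds an NRF1, an ETS and 2 SP1 matches, and the Ndufs5 window 1 match to the estrogen-related receptor site AAGGTCA, found in 5.95% of member and 4.08% of all windows. YY1 (AAGATGGC) stood at 2.38% against 1.56% and CREB (TGACGTCA) at 3.57% against 1.55%. The full androgen receptor palindrome, with any 3 bases between its arms, was in no member window and in 3 of all windows (0.00913%). The Ndufc2 window held none of the 7, which says only that these letters are not in these bases.

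In MRL/lpr glands, T raised 5 members and lowered none on CL, where 13.1% of all genes were called, and raised 6 and lowered 1 on Affy, where 7.35% were called. The members' shares were 6.67% and 7.87%, below the all-gene share on CL and close to it on Affy. Among the brightest 25% of all genes 14.6% and 13.5% were called. At an unadjusted p under 0.05 there were 20 members (26.7%, all genes 25.3%) and 21 (23.6%, all genes 22%). After normexp background correction the CL split was 3 higher and 3 lower. Without placebo pool 1, whose salivary signal is given above, the calls were 3 on CL (all of the same genes) and 2 on Affy (Ndufc2 and Ndufa1), with 9.11% and 4.05% of all genes called. Without T pool 3 they were 3 and 3, with 11.6% and 4.99% of all genes. Without NOD T pool 1, which enters only through the shared error estimate, 5 were called on CL and 17 on Affy. The 17 included all of those called with it, and the shares of all genes were 12.7% and 12.9%.

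On CL the complex I member that rose beside Ndufc2 was Ndufab1, the mitochondrial acyl carrier protein. Its signals were 3.11, 3.75 and 3.14 under placebo and 8.01, 11.5 and 9.62 under T, without overlap, a change of 1.53 (SE 0.18, adjusted p = 0.000143, limma). The NOD placebo pools stood at 6.11, 6.25 and 6.69 and the T pools at 8.31, 6.89 and 7.77, and this change was 0.27 (adjusted p = 0.38). The 3 Affy probe sets of Ndufab1 alone gave 0.22 (adjusted p = 0.66), 0.47 (adjusted p = 0.49) and -0.10 (adjusted p = 0.85) in MRL/lpr glands. A further Affy probe set, which also matches the pseudogene Ndufab1-ps, rose by 1.05 (adjusted p = 0.0154).

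Sdhb, the iron-sulfur subunit of complex II, rose in MRL/lpr glands on CL by 0.62 (SE 0.17, adjusted p = 0.0347), from 37.1, 39.7 and 31.6 to 62.6, 50.1 and 54.5, and Affy gave 0.24 (adjusted p = 0.72). Cox8a, a small subunit of complex IV, rose by 0.64 (SE 0.19, adjusted p = 0.0478) on CL, with 0.09 (adjusted p = 0.85) on Affy. Both CL calls lay near the threshold. Leaving out 1 of the 12 pools at a time kept the call of Sdhb in 7 cases and that of Cox8a in 2, while the changes stayed between 0.53 and 0.70 and between 0.49 and 0.73.

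On Affy, 3 more complex I subunits rose in MRL/lpr glands. Ndufa1, a small membrane-arm subunit, went from 7462, 6638 and 6507 to 12927, 11320 and 14560, a change of 0.91 (SE 0.18, adjusted p = 0.00438, limma). Its CL signals also separated, from 39.8, 47.1 and 34.6 to 73.0, 68.2 and 77.6, with a change of 0.86 and an adjusted p of 0.0546 that missed the threshold. Ndufa8 rose by 0.56 (SE 0.16, adjusted p = 0.0388). Ndufb1 rose by 1.39 (SE 0.40, adjusted p = 0.0428), but 2 of its 3 placebo pools were near background.

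Cox17, the copper chaperone that serves complex IV assembly, rose by 1.04 (SE 0.29, adjusted p = 0.0373) on Affy, and Atp5md, a small membrane subunit of ATP synthase, by 0.85 (SE 0.24, adjusted p = 0.0414). Counted by its brightest probe set, the member that fell was Ndufs1, the largest iron-sulfur subunit of complex I. Its Affy signals went from 1635, 1918 and 1979 to 1046, 1368 and 845, a change of -0.79 (SE 0.23, adjusted p = 0.0468). On CL its change was -0.96 (adjusted p = 0.0812) and the groups overlapped.

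In NOD glands, T raised 3 members and lowered 4 on CL, where 17.1% of all genes were called, and raised 1 and lowered 5 on Affy, where 10.4% were called. The members' shares of 9.33% and 6.74% were below those backgrounds and below the shares of 22.1% and 18% among the brightest 25% of genes. At an unadjusted p under 0.05 there were 16 members (21.3%, all genes 29.6%) and 30 (33.7%, all genes 22.8%). Most lower CL calls depended on scaling, with 3 higher and 1 lower after quantile normalization and 3 higher and 0 lower after normexp. Without NOD T pool 1 the calls were 5 on CL and 10 on Affy, with 16.1% and 12.2% of all genes, and 5 of the 6 genes called with it on Affy remained. Without MRL/lpr placebo pool 1 or MRL/lpr T pool 3, which enter only through the shared error estimate, they were 4 and 7 on CL and 4 and 4 on Affy. The shares of all genes called were then 16.1% and 19% on CL and 9.07% and 10% on Affy.

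Atp5j, coupling factor 6 in the stalk of ATP synthase, was lower under T on both platforms. Its CL signals fell from 96.6, 101 and 106 to 41.9, 46.4 and 59.2, a change of -1.06 (SE 0.18, adjusted p = 0.00135, limma). The Affy signals fell from 11558, 11298 and 9244 to 7217, 5185 and 4729, a change of -0.92 (SE 0.20, adjusted p = 0.00646). No T pool overlapped a placebo pool on either. In MRL/lpr glands the CL signals were 81.0, 75.6 and 69.4 under placebo and 68.5, 63.4 and 85.3 under T. There the change was -0.07 for the CL probe, with adjusted p = 0.89, and -0.59 for the Affy probe set, with adjusted p = 0.0967.

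**Figure D2:**
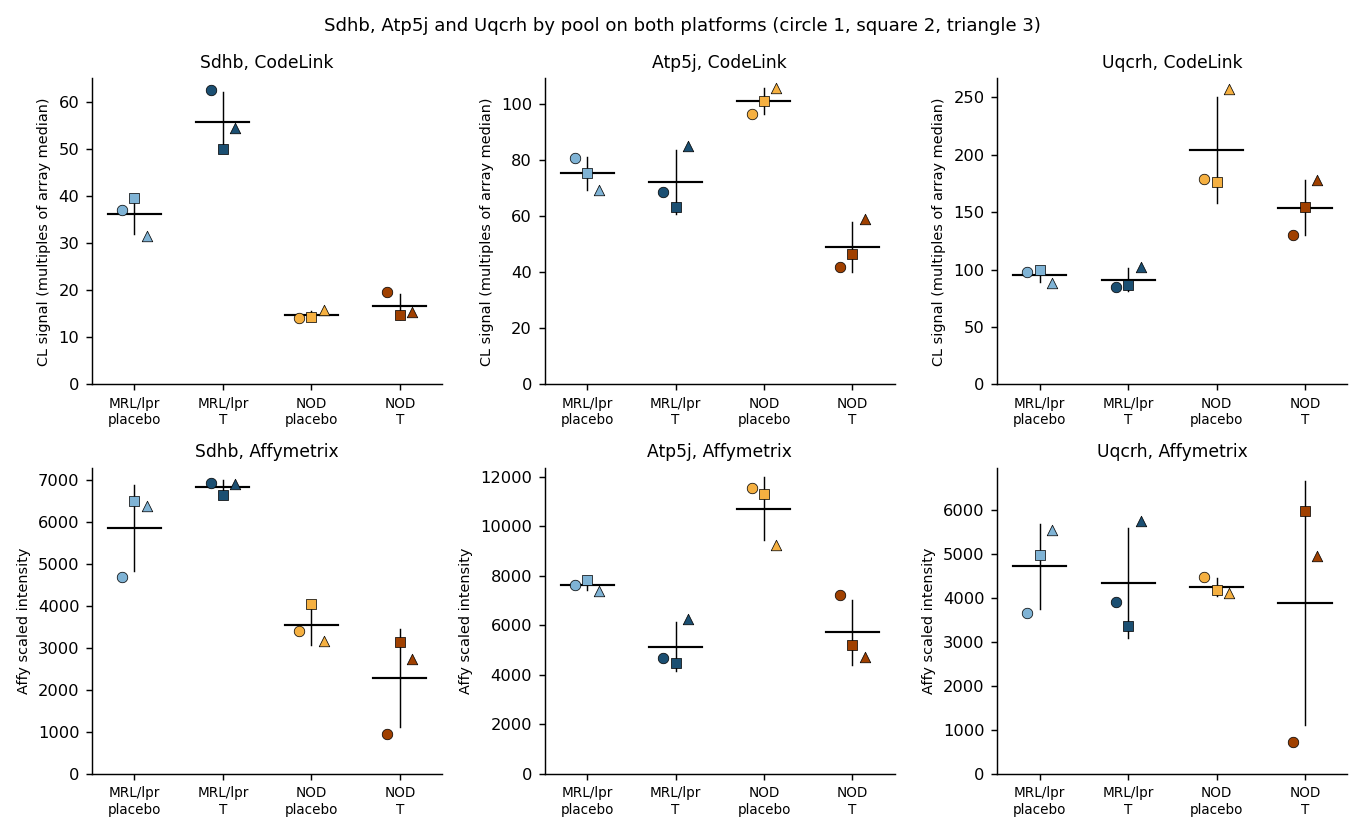
Signals of Sdhb (complex II), Atp5j (complex V) and Uqcrh (complex III) in every pool, with CL in multiples of the array median and Affy scaled to a trimmed mean of 500. Circles, squares and triangles are pools 1, 2 and 3, lines are means and bars SD (n = 3); NOD pools lie below MRL/lpr pools for Sdhb on both platforms, and above them for Uqcrh on CL only.

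The other members that fell in NOD glands were called on 1 platform each. Atp5o, the oligomycin sensitivity protein that joins the catalytic head of ATP synthase to its stator, went on Affy from 5579, 6220 and 6522 to 1033, 2764 and 2633, a change of -1.64 (SE 0.31, adjusted p = 0.00220, limma), with pool 1 the lowest. CL gave -0.39 (adjusted p = 0.12), again with no T pool above a placebo pool. Another Affy probe set of Atp5o gave -0.62 (adjusted p = 0.37, limma). Atp5pb, the b subunit of the stator, fell on CL by 0.67 on the log2 scale (adjusted p = 0.0352), whereas Affy gave 0.38 (adjusted p = 0.33). Uqcrb, a subunit of complex III that binds near ubiquinone, fell on CL by 0.91 (adjusted p = 0.00808), with -0.21 (adjusted p = 0.76) on Affy.

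Complex I contributed 3 of the Affy calls. Ndufv1, the flavoprotein that accepts electrons from NADH, fell from 2727, 2752 and 2325 to 1873, 1530 and 1422, a change of -0.70 (SE 0.17, adjusted p = 0.0139, limma). Ndufv3 changed by -0.68 (SE 0.21, adjusted p = 0.0466) and Ndufb3 by -1.19 (SE 0.34, adjusted p = 0.0328), with the lowest value in T pool 1 for both. Ndufaf4, an assembly factor of complex I, fell on CL by 0.60 (SE 0.18, adjusted p = 0.0443).

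Immune and epithelial markers moved in NOD glands in the same comparison. On CL, 5 of 6 T cell, 2 of 6 B and plasma cell and 3 of 4 macrophage and dendritic cell markers tested rose with T, and 1 of 5 acinar and 4 of 7 duct and myoepithelium markers fell. On Affy, 3 of 7 T cell, 5 of 7 B and plasma cell and 5 of 7 macrophage and dendritic cell markers rose. There 4 of 7 acinar markers fell and 1 rose, and 4 of 8 duct and myoepithelium markers fell. Summed acinar signals on Affy were 94442 to 122785 under placebo and 64314 to 77698 under T. Their part in the members' changes was not tested, and in whole-gland RNA fewer cells of a type and less RNA per cell cannot be told apart. In MRL/lpr glands fewer markers were called, most of them lower. On CL, 1 of 6 T cell markers rose and 1 fell, and 3 of 6 B and plasma cell, 1 of 4 macrophage and dendritic cell, 2 of 5 acinar and 2 of 7 duct markers fell. On Affy none of these rose and 1 of 7, 2 of 7, 1 of 7, 1 of 7 and 2 of 8 fell, in the same order. The summed acinar signals on Affy went from 134694 to 139728 under placebo to 104148 to 123025 under T, and the summed duct signals from 10718 to 13198 to 5367 to 5495.

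Between the strains, the T change of most members was more negative in NOD. On CL, 63 of 75 members (84% against 54.7% of all genes) had a smaller or more negative change in NOD than in MRL/lpr, and on Affy 73 of 89 (82.0% against 51.5%). Among the brightest 25% of all genes the shares were 64.4% and 56.5%. The median difference was -0.37 on CL and -0.42 on Affy, where all genes had -0.07 and -0.03 and the brightest 25% -0.22 and -0.10. The members share pools and arrays, so that these counts describe the data and carry no test.

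The direction of that median depended on scaling. On CL it was -0.09 after quantile normalization, with all genes at 0.01, and 0.19 after normexp background correction, with all genes at 0.10. On Affy it was -0.31 after quantile normalization and -0.39 when each array was scaled to its own median. With signals as deposited, unscaled, it was 0.81, below the all-gene median of 1.02. The separate medians moved likewise. The MRL/lpr change had a median of 0.19 on CL, 0.10 after quantile normalization and -0.08 after normexp. The NOD median was -0.22 and became 0.00 and 0.13 under the same settings. As first scaled, all genes on CL had medians of -0.04 in MRL/lpr and -0.09 in NOD glands. The brightest 25% had -0.04 and -0.22, so that the NOD median of the members was that of bright genes.

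**Figure D3:**
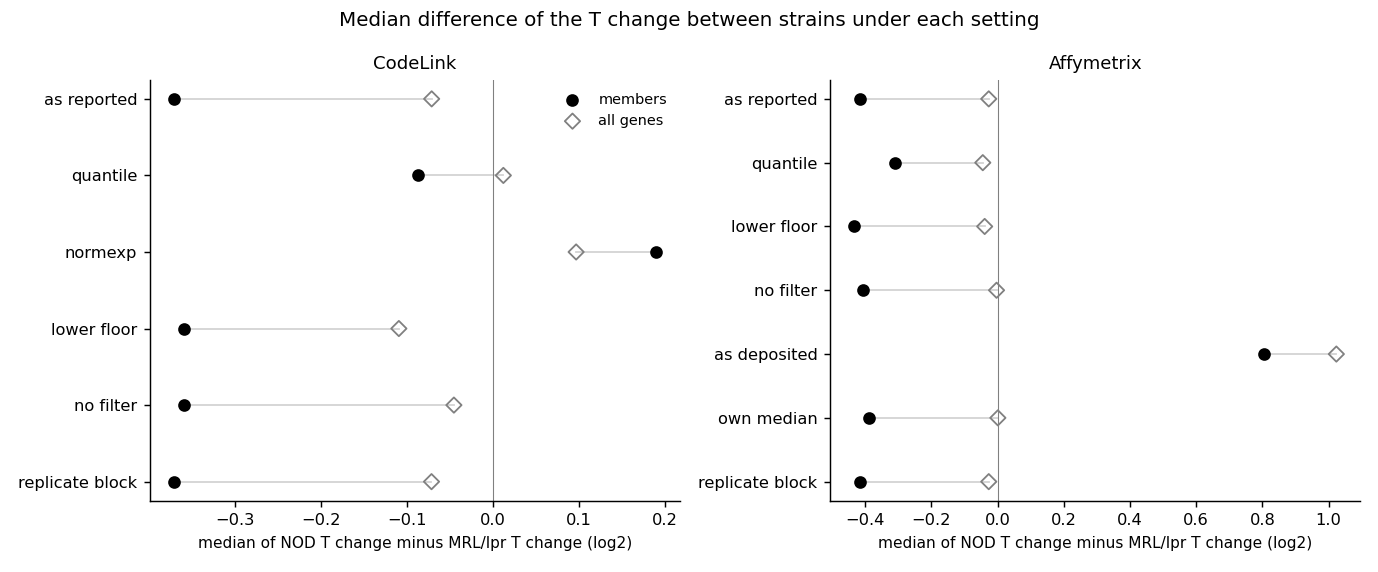
Median over members (and over all genes) of the NOD T change minus the MRL/lpr T change, log2, under each processing setting on CL and Affy. The member median lies below 0 under most settings and above 0 for normexp on CL (0.19) and for unscaled signals on Affy (0.81).

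**Figure D4:**
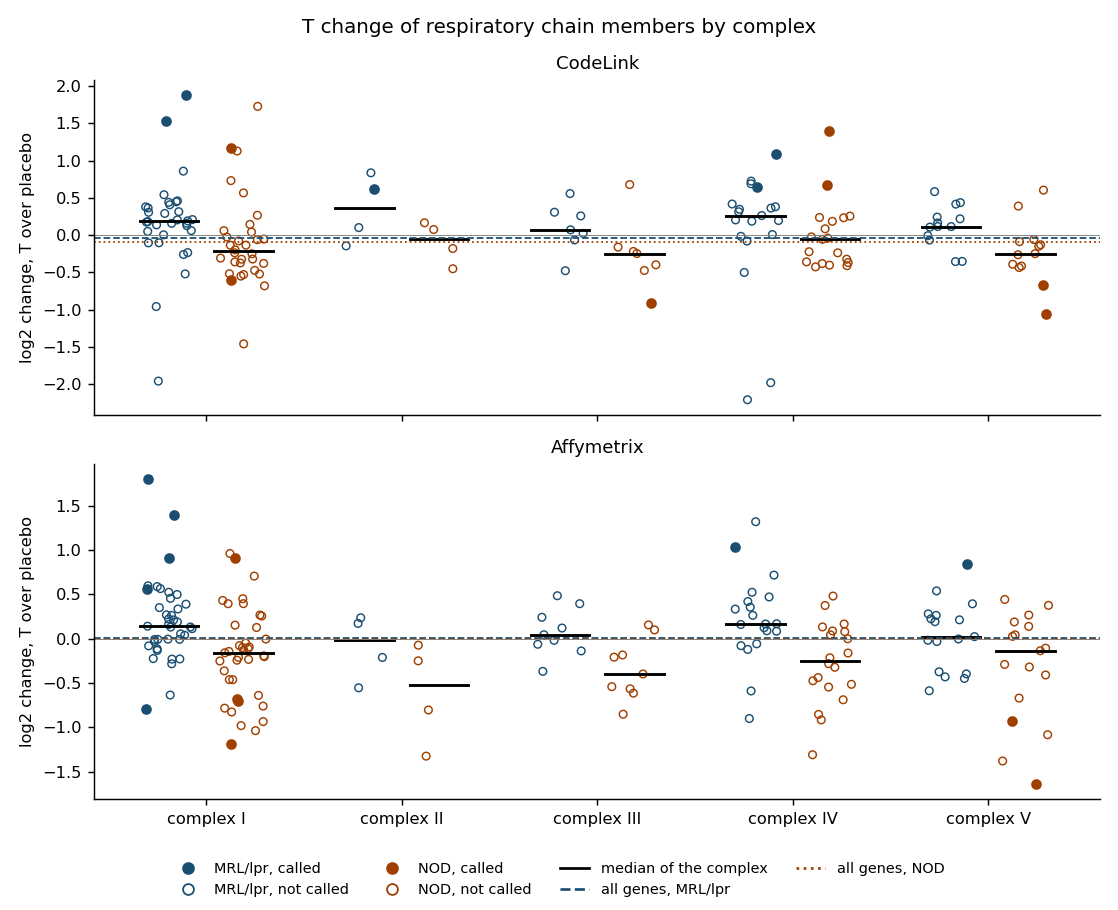
Change with T (log2) of each member by complex in MRL/lpr and NOD glands on CL and Affy, where filled points passed the test and dashed and dotted lines mark the all-gene medians of the strains. Filled points are few and lie on both sides of 0, with Ndufc2 the highest filled point of complex I in MRL/lpr glands on both platforms (1.88 and 1.80).

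Few single members passed the test of this difference. On CL, 4 did (5.33%, against 8.51% of all genes and 9.6% of the brightest 25%), and on Affy 1 did (1.12%, against 4.6% and 6.55%). At an unadjusted p under 0.05 there were 17 (22.7%, all genes 21.1%) and 19 (21.3%, all genes 16.8%). The CL genes were Ndufab1 (-1.27, SE 0.26, adjusted p = 0.0105, limma), Atp5pb (-1.08, SE 0.27, adjusted p = 0.0323), Uqcr11 (-1.03, SE 0.24, adjusted p = 0.0234) and Atp5j (-0.99, SE 0.25, adjusted p = 0.0318). Without MRL/lpr placebo pool 1 the CL count was 1 and the Affy count 0, with 6.33% and 2.77% of all genes called. Without MRL/lpr T pool 3 they were 2 and 0, with 7.86% and 3.42%, and without NOD T pool 1 they were 2 and 8, with 8.27% and 7.42%.

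Uqcr11, the smallest subunit of complex III, went from 19.6, 23.9 and 18.1 to 25.6, 31.0 and 34.1 on CL in MRL/lpr glands and from 23.3, 25.8 and 24.5 to 16.1, 17.2 and 19.9 in NOD glands. The pools separated in opposite directions, although neither change passed the test alone (0.56, adjusted p = 0.0579, and -0.47, adjusted p = 0.0900). On Affy the difference was -0.48 (adjusted p = 0.52). Ndufa13, a complex I subunit also known as GRIM-19, differed on Affy by -1.03 (SE 0.26, adjusted p = 0.0331), and on CL by -0.09 (adjusted p = 0.89).

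Under placebo, 3 members were higher and 1 lower in NOD than in MRL/lpr glands on each platform, with 10.4% of all genes called on CL and 5.87% on Affy, and 10.3% and 8.98% of the brightest 25%. The members' shares were 5.33% and 4.49%, and 14 (18.7%, all genes 23.5%) and 10 (11.2%, all genes 17.8%) had an unadjusted p under 0.05. After normexp the CL split was 0 higher and 1 lower, and after quantile normalization the Affy split was 2 and 2. No member was called by both platforms. Without MRL/lpr placebo pool 1 the calls were 3 on CL and 2 on Affy, with 6.55% and 3.45% of all genes called. Without MRL/lpr T pool 3 they were 4 and 3, with 12% and 5.53% of all genes. Without NOD T pool 1 they were 5 and 8, with 10.2% and 9.28%. The T pools enter this comparison only through the shared error estimate. Markers of other cells differed too. Macrophage and dendritic cell markers were lower in NOD for 2 of 4 on CL and 6 of 7 on Affy, T cell markers for 2 of 6 (with 1 higher) and 3 of 7, and adipocyte markers for 4 of 5 on CL and 1 of 5 on Affy. Their part in the strain differences was not tested. The clearest member was Ndufs5, a complex I subunit of the intermembrane space face, which has no CL probe.

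The Affy probe set specific to Ndufs5 read 3527, 3562 and 3726 in MRL/lpr placebo pools and 526, 318 and 203 in NOD placebo pools, a ratio of means of 0.0968. Under T the pools read 3286, 2538 and 3532 in MRL/lpr and 285, 112 and 124 in NOD, a ratio of 0.0556. The log2 differences were -3.48 (SE 0.34, adjusted p = 3.45e-06, limma) and -4.29 (SE 0.34, adjusted p = 2.77e-07). All 6 NOD pools lay far below all 6 MRL/lpr pools.

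A second Affy probe set, which matches Ndufs5 and its pseudogene Ndufs5-ps, did not show this. It read 2265, 2596 and 2610 in MRL/lpr placebo pools and 2997, 2665 and 2544 in NOD placebo pools, a difference of 0.13 (SE 0.38, adjusted p = 0.94). Under T it differed by -0.71 (adjusted p = 0.26), with NOD T pool 1 at 543 and the other pools at 2243 and 2514. Whether the probes of the first set match the NOD sequence was not tested, so its low signal is a measurement of that probe set rather than of all Ndufs5 transcripts.

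**Figure D5:**
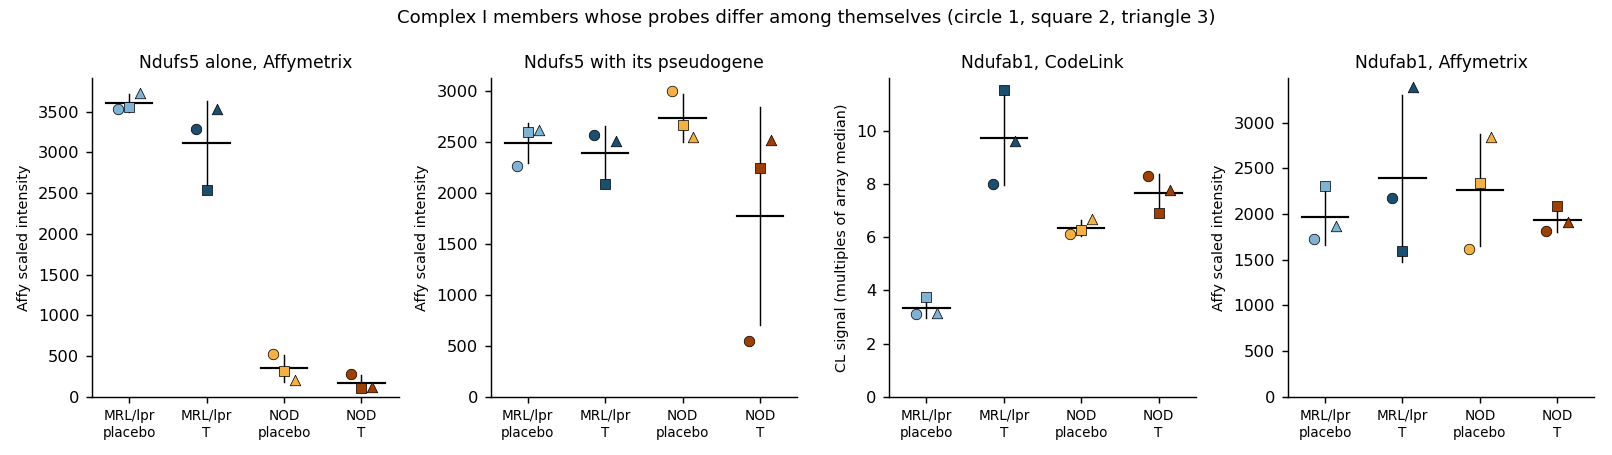
Signals of the Affy probe set for Ndufs5 alone, the Affy set shared with its pseudogene, and the CL and Affy probes of Ndufab1 in every pool. Circles, squares and triangles are pools 1, 2 and 3, lines are means and bars SD (n = 3). The strains separate on the first Ndufs5 set and overlap under placebo and under T on the shared set. The T rise of Ndufab1 in MRL/lpr glands appears on CL.

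Sdhb differed between strains in both treatments on CL. NOD placebo pools read 14.1, 14.3 and 15.8 and T pools 19.7, 14.8 and 15.3, against the 31.6 to 62.6 of the 6 MRL/lpr pools given above. The differences were -1.29 (SE 0.17, adjusted p = 0.000609, limma) under placebo and -1.75 (SE 0.17, adjusted p = 3.77e-05) under T. On Affy the MRL/lpr placebo pools read 4684, 6498 and 6376 and the NOD placebo pools 3392, 4049 and 3151. They did not overlap, but the difference of -0.72 had an adjusted p of 0.26. Under T the MRL/lpr pools read 6928, 6644 and 6903 and the NOD pools 948, 3140 and 2737, a difference of -1.76 (SE 0.32, adjusted p = 0.00192). The other pools of that group also lay below every MRL/lpr pool.

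The remaining subunits of complex II were not called in any comparison on either platform. Sdha, the flavoprotein that oxidises succinate, differed between strains under placebo by 0.26 for the CL probe, with adjusted p = 0.47, and 0.04 for the Affy probe set, with adjusted p = 0.97. Sdhc, a membrane anchor, differed by 1.07 (adjusted p = 0.0792) on CL and -0.06 on Affy. Its Affy change with T in NOD glands was -1.32 (adjusted p = 0.0511), with T pool 1 at 212 and the others at 1054 and 927. Another Affy probe set of Sdhc gave 0.22 (adjusted p = 0.78) for that change. Sdhd, the other anchor, differed between strains under placebo by 0.33 (adjusted p = 0.32) on CL and -0.06 on Affy.

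Uqcrh, the hinge protein of complex III, was higher in NOD glands on CL only. Its pools read 98.0, 99.3 and 88.4 (MRL/lpr placebo), 84.6, 86.9 and 102 (MRL/lpr T), 179, 177 and 258 (NOD placebo) and 130, 154 and 178 (NOD T). The differences were 1.08 (SE 0.19, adjusted p = 0.00411, limma) under placebo and 0.75 (SE 0.19, adjusted p = 0.0247) under T. On Affy they were -0.13 (adjusted p = 0.97) and -0.61 (adjusted p = 0.49), and NOD T pool 1 read 725 where the other pools of its group read 5964 and 4948.

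Ndufa13 was higher in NOD placebo glands on Affy, with 2402, 2228 and 2076 in MRL/lpr and 6654, 4688 and 4454 in NOD pools (1.21, SE 0.18, adjusted p = 0.000386, limma), and CL gave 0.17 (adjusted p = 0.70). Under T the Affy difference was 0.19 (adjusted p = 0.55). Atp5g1, which encodes the proton-carrying c subunit of ATP synthase, was higher in NOD on Affy in both treatments, by 0.66 (adjusted p = 0.0256) and 0.58 (adjusted p = 0.0326). Uqcrc1, a core protein of complex III, was higher by 0.71 (adjusted p = 0.0440) under placebo on Affy, and its CL probe was near background in 11 of 12 pools. Cox11, a copper-delivery assembly factor of complex IV, was higher by 1.21 (adjusted p = 0.0263) on CL. Without MRL/lpr placebo pool 1, Cox11, Uqcrc1 and the placebo difference of Atp5g1 were not called.

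Under T, members called lower in NOD than in MRL/lpr glands outnumbered those called higher, though not under every scaling. On CL, 1 was higher and 7 lower (10.7%, against 13% of all genes and 15.6% of the brightest 25%), and on Affy 2 were higher and 15 lower (19.1%, against 10.7% of all genes and 19.2% of the brightest 25%). Counting lower calls alone, 7.08% of all genes on CL and 4.97% on Affy were lower, and 11.2% and 9.59% of the brightest 25%. The unadjusted counts were 24 (32%, all genes 25.4%) and 40 (44.9%, all genes 25.7%). After normexp on CL 2 were higher and 1 lower, and with each Affy array scaled to its own median 4 were higher and 5 lower. Quantile normalization gave 1 and 4 on CL and 4 and 15 on Affy. The median member difference was -0.28 on CL and -0.30 on Affy, against -0.02 and -0.05 for all genes. The brightest 25% had -0.18 on CL and -0.0003 on Affy. Markers of T cells were higher in NOD for 3 of 6 on CL and 2 of 7 on Affy. Those of B and plasma cells were higher for 2 of 6 and 4 of 7. For macrophages and dendritic cells this was 1 of 4 and 0 of 7. Acinar markers were lower for 1 of 5 and 3 of 7, and adipocyte markers for 3 of 5 and 2 of 5. Duct and myoepithelium markers were lower for 3 of 7 and 3 of 8. Their part in the members' differences was not tested.

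By complex, the lower calls on Affy were 8 of 39 genes in complex I, 1 of 4 in II, 2 of 9 in III, 2 of 20 in IV and 2 of 17 in V. On CL they were 0 of 32, 1 of 4, 1 of 7, 4 of 19 and 1 of 13. Without NOD T pool 1 the Affy calls were 21, of which 12 were called with it, and the CL calls 4, with 12.3% and 11.3% of all genes called. Without MRL/lpr T pool 3 they were 6 on Affy, all lower and all called with it, and 5 on CL, with 6.93% and 11.4% of all genes. Without MRL/lpr placebo pool 1, which enters only through the shared error estimate, they were 14 on Affy and 5 on CL. The shares of all genes were then 8.99% and 11.6%. With Affy signals left unscaled, the median of all genes in this comparison was 1.61 and that of the members 1.57, so that the sign of a single member there includes that shift.

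The members that both platforms called lower were Sdhb, Cox6a1, Uqcr11 and Atp5md. Cox6a1, the ubiquitous form of complex IV subunit VIa, read 111, 135 and 152 in MRL/lpr T pools and 87.4, 90.7 and 84.7 in NOD T pools on CL (-0.59, SE 0.16, adjusted p = 0.0366, limma). On Affy the pools read 18506, 19341 and 21712 against 5018, 12162 and 13511 (-1.08, SE 0.28, adjusted p = 0.0218). The pools did not overlap on either platform. Uqcr11 gave -0.77 for the CL probe, with adjusted p = 0.0122, and -0.80 for the Affy probe set, with adjusted p = 0.0373, and Atp5md -0.54 (adjusted p = 0.0479) and -0.86 (adjusted p = 0.0288).

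Some of these calls lay near the threshold. Leaving out 1 of the 12 pools at a time kept the CL call of Cox6a1 in 5 cases and that of Atp5md in 3, and the Affy call of Uqcr11 in 3, of Atp5md in 8 and of Cox6a1 in 9. The CL differences stayed between -0.71 and -0.48 for Cox6a1 and between -0.59 and -0.49 for Atp5md, and the Affy difference of Uqcr11 between -0.99 and -0.53. Sdhb on both platforms and Uqcr11 on CL were called in all 12 cases.

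The lower complex I members on Affy under T included Ndufv3, the small flavoprotein-module subunit, at 3895, 4633 and 5571 in MRL/lpr and 1145, 1758 and 1881 in NOD pools (-1.58, SE 0.21, adjusted p = 9.69e-05, limma). Ndufb3 (-1.37), Ndufa12 (-1.22), Ndufs7 (-0.98, an iron-sulfur subunit near the quinone site), Ndufb10 (-0.81) and Ndufa4 (-0.67, a protein since assigned to complex IV) were lower as well. On CL, Ndufv3 gave -0.12, Ndufb3 0.15, Ndufa12 -0.22, Ndufs7 -0.13 and Ndufa4 -0.18, and none was called. Ndufb10 has no CL probe.

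Among the other complexes on Affy, Atp5o was lower by 1.26 on the log2 scale (adjusted p = 0.0150), Cox7a2l, a factor that joins complexes III and IV, by 0.94 (adjusted p = 0.00399) and Uqcr10 by 0.75 (adjusted p = 0.0274). Cox7b, a small complex IV subunit, was lower on CL, with 167, 154 and 152 in MRL/lpr T pools and 105, 110 and 78.5 in NOD T pools (-0.70, SE 0.17, adjusted p = 0.0200). Ndufaf4 was higher in NOD on Affy by 0.97 (adjusted p = 0.0267), whereas CL gave 0.08 (adjusted p = 0.86). Another Affy probe set of Ndufaf4 gave -0.67 (adjusted p = 0.36, limma) in that comparison.

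Tissue-restricted isoforms of complex IV gave little signal. The heart and muscle forms Cox7a1 and Cox6a2 were near background on 10 and 9 of 12 CL arrays, and Cox8b, a form of muscle and brown fat, on all 12. Cox4i2, a form described in lung, was near background on all 12 CL arrays with signals between 0.134 and 1.97. It passed the test for T in both strains and for strain under T on CL, but with every pool near background no fold is given. Cox7a1 on CL read 0.363, 0.553 and 0.339 in NOD placebo pools, all near background, and 1.33, 1.08 and 1.75 in T pools, of which 1 was near background (adjusted p = 0.00102). Cox6a2 on CL was called lower in NOD under T (adjusted p = 0.0469) with all 6 of those pools near background, and its fit left out 1 NOD placebo pool with a marked spot. Cox8c, described in testis, was near background in all MRL/lpr placebo pools on Affy and at least 2.50-fold higher under T, without passing the test (adjusted p = 0.21). Striated muscle markers were called in neither strain with T on either platform, 0 of 9 on CL and 0 of 12 on Affy.

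The platforms agreed on sign more than on calls. Of 69 members tested on both, 48 had the same sign for T in MRL/lpr, 50 for T in NOD, 53 for the difference between these changes, 36 for strain under placebo and 48 for strain under T. For all 6793 genes on both, the shares ranged from 61.5% to 64.4%. The sizes of the changes agreed less for members than for all genes. Their correlation between platforms was 0.15 to 0.35 over the members and 0.38 to 0.53 over all genes. No member was called in opposite directions, but 28 had a pair of probes more than 1 apart on the log2 scale in some comparison. Some CL values were set by a single low pool. Cox6b1 read 0.622 in MRL/lpr T pool 1 where the others read 53.2 and 59.3, Ndufb5 read 0.520 against 46.2 and 43.7 in the same group, and Cox5b read 0.842 in pool 3 against 37.4 and 44.1. These gave changes of -1.98, -1.96 and -2.21 that were not called.

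Genes around the chain were counted from lists of their own. Cytochrome c (Cycs) rose with T in MRL/lpr glands on both platforms, from 46.2, 49.0 and 41.4 to 72.3, 91.5 and 75.1 on CL (0.80, adjusted p = 0.0134, limma) and by 1.15 (adjusted p = 0.00386) on Affy. On Affy the NOD change minus the MRL/lpr change of Cycs was -1.30 (adjusted p = 0.0254). Coq7, a hydroxylase of ubiquinone synthesis, fell with T in both strains on both platforms. Its CL signals went from 9.48, 7.85 and 7.95 to 2.76, 3.60 and 3.74 in MRL/lpr and from 9.62, 6.33 and 10.2 to 2.85, 2.62 and 3.52 in NOD glands, changes of -1.33 (adjusted p = 0.00225) and -1.52 (adjusted p = 0.000626). Affy gave -1.22 (adjusted p = 0.00254) and -1.38 (adjusted p = 0.000565).

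Of the list of cytochrome c and ubiquinone synthesis, 5 genes were tested on CL and 10 on Affy. T called 1 higher and 1 lower in MRL/lpr on each platform, and in NOD none higher, with 1 lower on CL and 2 on Affy. These were 40% (MRL/lpr) and 20% (NOD) of this small list on CL and 20% in each strain on Affy. Of all genes, 13.1% and 17.1% were called on CL and 7.35% and 10.4% on Affy. Of 64 mitochondrial ribosome genes on CL, 5 rose and 1 fell with T in MRL/lpr and 0 rose and 2 fell in NOD. On Affy, of 74, 3 rose and 1 fell in MRL/lpr and 1 rose and 6 fell in NOD. The ribosome shares were 9.38% (MRL/lpr) and 3.12% (NOD) on CL and 5.41% and 9.46% on Affy, all below the shares of all genes. The median difference between the strains in the ribosome genes was -0.30 on CL and -0.35 on Affy, near that of the chain members.

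Of 17 pyruvate dehydrogenase and tricarboxylic acid cycle genes on either platform, T changed none in MRL/lpr and 1 in NOD, lower, on Affy. Their median differences between strains in the T change were -0.23 on CL and 0.02 on Affy. Glycolysis genes gave 1 of 12 higher in MRL/lpr and 2 higher in NOD on CL, and none of 14 on Affy in either strain. Among biogenesis regulators, 1 of 14 fell in MRL/lpr and 4 of 14 in NOD on CL, and on Affy none of 18 changed in MRL/lpr and 1 rose in NOD. One of the CL genes was Esrra, the estrogen-related receptor alpha that drives mitochondrial gene programmes, with -1.10 (adjusted p = 0.00885) in NOD glands and -0.08 (adjusted p = 0.97) on Affy. Of 8 antioxidant genes on Affy, 1 rose in MRL/lpr and 1, Nnt (the transhydrogenase of the inner membrane), fell in NOD by 1.63 on the log2 scale (adjusted p = 0.000403). Over all genes, T called 13.1% (MRL/lpr) and 17.1% (NOD) on CL, and 7.35% and 10.4% on Affy. On CL the glycolysis shares were 8.33% and 16.7%, and those of biogenesis regulators 7.14% and 28.6%. On Affy the NOD shares were 5.88% for the tricarboxylic acid cycle list and 5.56% for biogenesis regulators. The antioxidant share there was 12.5% in each strain.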

How the data were processed

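Female MRL/lpr and NOD lacrimal gland RNA was measured on 24 arrays, 12 CodeLink and 12 Affymetrix, with groups taken from the sample titles. The CodeLink intensity values were normalized by the authors to each array's median, and the deposited Affymetrix intensity values came from GCOS, named without a version in the submitters' processing notes. Their arrays were not on a common scale, so each was multiplied by a factor between 3.33 and 22.6 to bring its trimmed mean (2% left out at each end) to 500. Values were floored at 0.5 (CodeLink) or 70.5 (Affymetrix) and log2-transformed. CodeLink spots marked as contaminated, irregular or masked were left out (30 to 51 an array).

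Models were fitted with limma 3.58.1 in R 4.3.3 over all 12 arrays of a platform, without a block for pool number, to all probes that passed the filter (13616 and 17891). A gene was counted by its brightest probe. The fit was tested on simulated data, where a log2 change of 1 was found for 32% to 40% of genes and a change of 2 for 73% to 94%. These changes were planted in few probes, all well above the floor, so that the rates need not hold for the real data. The study's methods used an unadjusted t-test, which was run as an alternative, as were other scalings, floors, filters, fits and pool removals. 9 Affymetrix probe sets that name a member and another symbol were left out of the counts. CodeLink symbols were listed for 11377 of 17440 probes, and Affymetrix probe sets had 1 symbol (20393), several (691) or none listed (1606).

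The members, lists and comparisons were chosen with earlier results of these data known. Eligible to be named were the called members (up to 10 a direction), those called on both platforms and the brightest of each complex. Complex II, the isoform sets, assembly factors, members whose probes disagreed and up to 3 genes of each related list in each comparison were also eligible. Not every gene of these classes is described. Sequences and coordinates are from RefSeq on GRCm38.p6, and 78 of 95 members matched a promoter. The number of arrays limits the precision.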

Additional observations from a re-analysis of the deposited data

Results flagged for a closer look

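For 5 members the change with T differed between the strains by the test of that difference itself, given as the NOD change minus the MRL/lpr change on the log2 scale. On CL these were Ndufab1 (-1.27), Atp5pb (-1.08), Uqcr11 (-1.03) and Atp5j (-0.99), and on Affy Ndufa13 (-1.03). None of the 5 passed on both platforms. Leaving out 1 of the 12 pools at a time kept the call in 12 cases for Ndufab1, 7 for Uqcr11, 4 for Atp5pb, 3 for Atp5j and 2 for Ndufa13.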

How the results depend on the processing

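Of 63 calls of single members, 4 were kept under every alternative tried that was chosen at the outset: Ndufc2 for T in MRL/lpr on CL, Ndufc2 for T in NOD on Affy, and under placebo Sdhb on CL and Ndufs5 on Affy. Of 1280 alternative values of these calls, 833 were kept, 430 lost significance and 17 reversed; the cause of the losses was not tested. All reversals came from Affy signals used as deposited, which moved the median of all genes to 0.65 for T in NOD, 1.02 for the difference and 1.61 for strain under T, so that these signs include a shift of all genes: for T in NOD Ndufv1 (0.051) and Ndufv3 (0.072), for the difference between strains Ndufa13 (0.21), and for NOD against MRL/lpr under T Atp5o (0.62), Ndufb3 (0.52), Cox6a1 (0.81), Sdhb (0.12), Cox7a2l (0.94), Ndufa4 (1.22), Ndufs7 (0.91), Uqcr10 (1.14), Ndufv3 (0.31), Ndufb10 (1.07), Ndufa12 (0.66), Atp5md (1.02), Uqcr11 (1.09) and Ndufc2 (0.93).

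Counts are given in the order T in MRL/lpr, T in NOD, difference between strains, strain under placebo and strain under T, and only where they moved by over 1.5 times. On CL, quantile normalization gave 3, 4 and 1 and, under T, 5. Normexp gave 3 for T in NOD, 0 for the difference, 1 under placebo and 3 under T. The lower floor gave 2 for T in MRL/lpr and 4 under T, and separate fits gave 9, 4 and, under T, 3. The methods' t-test, unadjusted, gave 26 and 19 for T, 16 under placebo and 17 under T, and after Benjamini-Hochberg adjustment 1 for T in NOD, 2 under placebo and 0 under T. On Affy, signals as deposited gave 0, 1, 0, 1 and 60. Scaling to the array's own median gave 2 for T in MRL/lpr, 0 for the difference and 9 under T. Separate fits gave 1 for T in NOD and 3 under T, no filter gave 2 for the difference and 11 under T, and counting every probe gave 17 for T in NOD, 3 for the difference and 29 under T. The methods' t-test gave 21, 14, 20 and 28 unadjusted and 0, 1, 1 and 0 adjusted for T in both strains and the strain comparisons.

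Leaving out 1 pool at a time gave 3 to 8, 4 to 7, 1 to 5, 3 to 6 and 3 to 11 on CL, and 2 to 17, 3 to 15, 0 to 8, 2 to 8 and 6 to 21 on Affy. The lowest CL count under T came without NOD T pool 2 and the highest without NOD placebo pool 3. On Affy the lowest count for T in NOD came without NOD placebo pool 1, the highest without NOD T pool 2, and the lowest under T without MRL/lpr T pool 3. Pool numbers did not pair the samples: deviations of same-numbered pools correlated between -0.07 and 0.11, and the best match had the same number in 13 of 36 and 15 of 36 cases. With pool number as a replicate block, the Affy count for T in NOD was 10, and no other count moved by over 1.5 times.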
